A study of Mus musculus with 20 samples.

Results

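This account compares 2 mouse cell lines that the labels derive from culture beside glioma cells, C12 and ih_DCTC. Members were the 3 libraries labelled C12 and the 3 labelled ih_DCTC, 6 of the 20 RNA sequencing libraries of the series, chosen by their cell type label, and every measured gene was compared. SU3 are human glioma stem cells kept as a line. C12 is labelled as macrophages that became malignant in culture with SU3 and cells washed from the peritoneum, and ih_DCTC as dendritic cells of bone marrow that became malignant beside SU3. Both carry the strain label nude mouse and no other genotype, and both were kept in DMEM with 10% fetal bovine serum. The labels name no drug, age, animal, batch or replicate number for either line. They mention monoclonal culture, so each line may be 1 clone, and nothing says that its 3 libraries came from separate cultures. The p-values below therefore measure only the spread between libraries of a group, pooled over all groups of the series, which may be technical.

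Macrophages and dendritic cells are both phagocytes of the blood lineage. Macrophages engulf debris and depend on the receptor Csf1r, whereas dendritic cells carry antigen to T cells, depend on Flt3 and Irf8, and display peptides on MHC class II. Cells of connective tissue, by contrast, secrete collagen and other matrix proteins and are told apart by body position through Hox genes. The comparison asks how 2 lines with different labelled precursors differ after the same kind of co-culture.

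The deposited table held expected counts, estimated numbers of fragments per gene, and totals were 9063817, 10465467 and 10767530 for C12 libraries 1 to 3 and 9354094, 12094418 and 10391266 for ih_DCTC libraries 1 to 3. CPM below is the usual count scaled to sequencing depth, here with TMM factors, and triplets of CPM follow the library order 1 to 3. Libraries stood apart within each line. Reads in introns made up 2.52%, 1.02% and 5.23% in C12 and 2.33%, 5.99% and 5.25% in ih_DCTC, in the submitters' alignment quality table. Profile distance, the square root of the mean squared log2 CPM difference over tested genes, was 0.741, 0.920 and 1.32 between pairs of C12 libraries and 0.873, 1.10 and 1.13 between pairs of ih_DCTC libraries. Distances between the lines averaged 1.44 ± 0.177 (SD of 9 library pairs that share libraries, range 1.24 to 1.74), so the closest cross-line pair lay nearer than the most distant C12 pair. ih_DCTC library 2 lay 0.459 to 0.545 from the 3 libraries of ih_BCTC, another line of the series, and 0.873 and 1.10 from the other ih_DCTC libraries. Calls of named genes were therefore also taken without the 3 libraries under 3% intron reads (C12 1, C12 2 and ih_DCTC 1, the low-intron libraries below), and each loss is given beside its gene. That fit keeps 1 C12 library, which is assumed to vary like the other groups.

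Ptprc, Itgax, Flt3 and Irf8, markers of the labelled precursor cells, were at or near 0 in both lines, and Csf1r was low. Ptprc, the CD45 gene of nucleated blood cells, stood at 0.659, 0.439 and 1.18 CPM in C12 and 0.374, 0.376 and 0.272 CPM in ih_DCTC. Itgax, the CD11c gene of dendritic cells, stood at 0.1099, 0 and 0 CPM in C12 and 0.125, 0.0752 and 0 CPM in ih_DCTC. Csf1r stood at 5.06, 4.06 and 4.47 CPM in C12 and 2.74, 0.301 and 3.08 CPM in ih_DCTC, and Flt3 and Irf8 stayed under 1 CPM in all 6 libraries. Cd68, a lysosomal protein used as a macrophage marker that other cells also make, was at 49.5, 66.1 and 22.6 CPM in C12 and 66.2, 7.67 and 37.01 CPM in ih_DCTC (log2 fold change 0.32 ± 0.58 (SE), edgeR adjusted p = 0.796). In the same table MDSC libraries held 1556 ± 28.9 CPM of Ptprc (SD, n = 3). Col1a1, a chain of type I collagen, was high in both lines, at 2256, 2582 and 1777 CPM in C12 and 2644, 2123 and 2268 CPM in ih_DCTC (log2 fold change -0.09 ± 0.46 (SE), edgeR adjusted p = 0.953). The markers measured thus went against the labelled cell types, and the names below are those of the labels only. Cdkn2a, a tumour suppressor locus, had 0 counts in all 6 libraries, which allows up to 0.0968 CPM over C12 and 0.0927 CPM over ih_DCTC. Xist overlapped between the lines, at 148, 34.5 and 692 and 53.2, 413 and 465 CPM, and of the Y-linked genes Ddx3y, Kdm5d and Uty had 0 counts in all 6 libraries.

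With all 20 libraries in 1 model, 1927 of 15779 tested genes differed between the lines (12.2%; edgeR quasi-likelihood F test, Benjamini-Hochberg adjusted p under 0.05). Of these, 898 were higher in C12 (5.69%) and 1029 were lower (6.52%), and 1765 had an absolute log2 fold change above 1. The 3 libraries of one line all lay outside the range of the other for 3529 genes (22.4%), with C12 above in 1714 and below in 1815. The median log2 fold change over all tested genes was -0.04, C12 minus ih_DCTC, the sign convention used throughout. The count depended on the libraries in the fit: it was 749 with the 6 libraries alone (2.76% higher and 3.05% lower), 520 without the low-intron libraries, 1173 without C12 library 1 and 1257 without C12 library 2. Without C12 library 3 the count was 2814, with 1649 lower, without ih_DCTC library 1 it was 1989, and without ih_DCTC library 2 the genes higher in C12 numbered 593. The filter was repeated for each set of libraries. It kept 12896 genes with the 6 libraries alone and 16390 without the low-intron libraries, and percentages for those fits use these totals. With intron share as a covariate the count was 2688 (7.72% of tested genes higher and 9.32% lower), and 1863 of the 1927 genes were called in the same direction there. In the same model C12 differed from ih_CTC, labelled as macrophages of a peritoneal xenograft, in 2603 genes (16.5%), and ih_CTC differed from ih_DCTC in 1296 (8.21%). C12 differed from ih_BCTC in 3156 genes (20% of those tested). Between ih_DCTC and ih_BCTC edgeR called 0 genes (0%), with 1605 at an unadjusted p under 0.05, while limma-voom called 0 and DESeq2 116. These comparisons share libraries, so the counts are set side by side only.

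The 12 genes that rose most in C12 included X-linked genes, signalling genes of blood cells and genes known from nerve tissue and epithelia. Esx1, an X-linked homeobox gene known from placenta (chrX:137115397-137122083 in the deposited annotation; the labels name no build, and gene starts and ends matched GENCODE M21 on GRCm38 for 68.4% of tested genes), stood at 21.5, 36.9 and 27.4 CPM in C12 and had 0 counts in ih_DCTC (at least 307-fold higher in C12, edgeR adjusted p = 9.71e-05). Armcx2, an X-linked gene of the armadillo repeat family (chrX:134804145-134809221), stood at 132, 105 and 99.7 CPM in C12 and 0, 0.0752 and 0.0907 CPM in ih_DCTC (1792-fold higher in C12, 95% counting interval 496 to 14803, edgeR adjusted p = 5.42e-09). Each C12 library was far above each ih_DCTC library for both. Ngfr, the low-affinity receptor of nerve growth factor, stood at 67.9, 106 and 32.1 CPM in C12 and 0, 0 and 0.181 CPM in ih_DCTC (1043-fold higher in C12, 95% counting interval 288 to 8616, edgeR adjusted p = 7.14e-05). Its mean was under 2 CPM in each of the other 5 groups. Krt19, a keratin of epithelia, was at 22.4, 49.6 and 6.19 CPM against 0.125, 0.0752 and 0.272 CPM (log2 fold change 7.28 ± 1.40 (SE), edgeR adjusted p = 0.00279). C12 library 3 was the lowest C12 library for Ngfr and Krt19, and without the low-intron libraries Krt19 lost its call (edgeR adjusted p = 0.181). Nptx1, a secreted pentraxin of synapses, showed the same, at 37.8, 42.4 and 17.2 CPM against 0.125, 0.602 and 0.907 CPM (edgeR adjusted p = 0.00358, and 0.174 without those libraries).

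Among the 12 genes that fell most in C12 were secreted proteins, membrane proteins and a transcription factor. Dkk2, a secreted modulator of Wnt signalling (chr3:132085292-132180293), had 0 counts in C12 against 11.6, 64.1 and 23.2 CPM in ih_DCTC (at least 383-fold lower in C12, edgeR adjusted p = 0.000436). Igsf3, an immunoglobulin superfamily membrane protein (chr3:101377125-101463059), had 0 counts in C12 against 17.4, 23.2 and 31.2 CPM in ih_DCTC (at least 253-fold lower in C12, edgeR adjusted p = 8.59e-08). Both genes lie on chromosome 3, as do 6 others of the 12 largest falls. Sox2, a transcription factor of neural and pluripotent stem cells, was at 0, 0.1096 and 0 CPM in C12 and 48.7, 102 and 36.01 CPM in ih_DCTC (2059-fold lower in C12, 95% counting interval 369 to 81356, edgeR adjusted p = 3.69e-05). Stc1, a secreted glycoprotein hormone, was at 0.1099, 0 and 0 CPM in C12 and 22.8, 53.9 and 95.9 CPM in ih_DCTC (1873-fold lower in C12, 95% counting interval 336 to 74018, edgeR adjusted p = 3.89e-06). Mgp, an inhibitor of matrix calcification, was at 0.2198, 0.767 and 0.314 CPM in C12 and 395, 131 and 380.0 CPM in ih_DCTC (log2 fold change -9.43 ± 1.39 (SE), edgeR adjusted p = 0.000201). None of these genes reached 1 CPM in a C12 library. Ptx3, a secreted pattern recognition protein, was at 0.4396, 0.767 and 0.705 CPM against 80.1, 187 and 935 CPM (log2 fold change -9.26 ± 1.36 (SE), edgeR adjusted p = 0.000198), and the spread within ih_DCTC exceeded 10-fold. Igsf10, Nlrp2, Npnt, Mgarp and Ptgfr were also among the 12, all under 0.5 CPM in C12, and 5.19 to 99.6 CPM in ih_DCTC. Without the low-intron libraries Mgp lost its call (edgeR adjusted p = 0.0633), and the other genes named here passed.

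**Figure D1:**
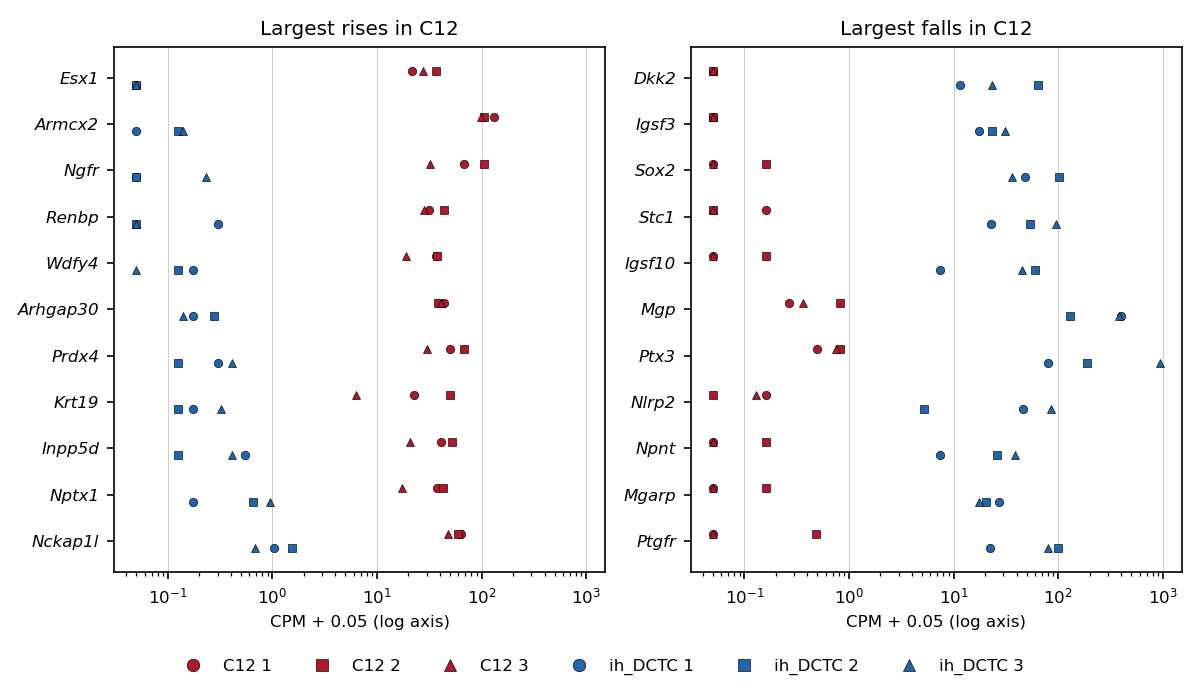
Level of 11 of the 12 genes that rose most and 11 of the 12 that fell most in C12 against ih_DCTC, as CPM + 0.05 on a log axis, 1 point per library. Every C12 library lies above every ih_DCTC library in the left panel and below it in the right panel, a separation that the rule for naming these genes required.

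The 45 gene lists, with 700 tested members, were chosen with earlier results of these data known, so their counts are a description. Most lists with several calls leaned to lower levels in C12, and 2 leaned strongly to higher levels. These 2 lists were Nrf2 and detoxification, with 10 of 19 tested members higher and 0 lower (median log2 fold change 1.66), and pan-leukocyte, with 6 of 16 higher and 0 lower (median 1.35). Against these stand 5.69% higher and 6.52% lower over all tested genes, with a median of -0.04. List counts from the fit of all 20 libraries are to be read against these shares throughout. In the other direction the neuronal list had 5 of 9 lower, the matrix protease list 8 of 18 and the Wnt list 11 of 31. Of the remaining lists with several calls, Notch and Hedgehog genes gave 4 lower and 1 higher of 17 (2 lower without C12 library 1), and smooth muscle and pericyte genes 3 lower and 1 higher of 10 (1 lower without C12 library 1). Members with 3 or fewer counts in 1 line have a fitted fold change that depends on the model's prior. Such members were set at their bound or counted ratio, or at 0 where neither could be given. This moved the median by over 0.1 in 8 of 45 lists, all of them markers of cell types with few reads here. It reversed the sign of none, but the macrophage and monocyte, lymphocyte, granulocyte, erythroid and endothelial medians became 0.

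**Figure D2:**
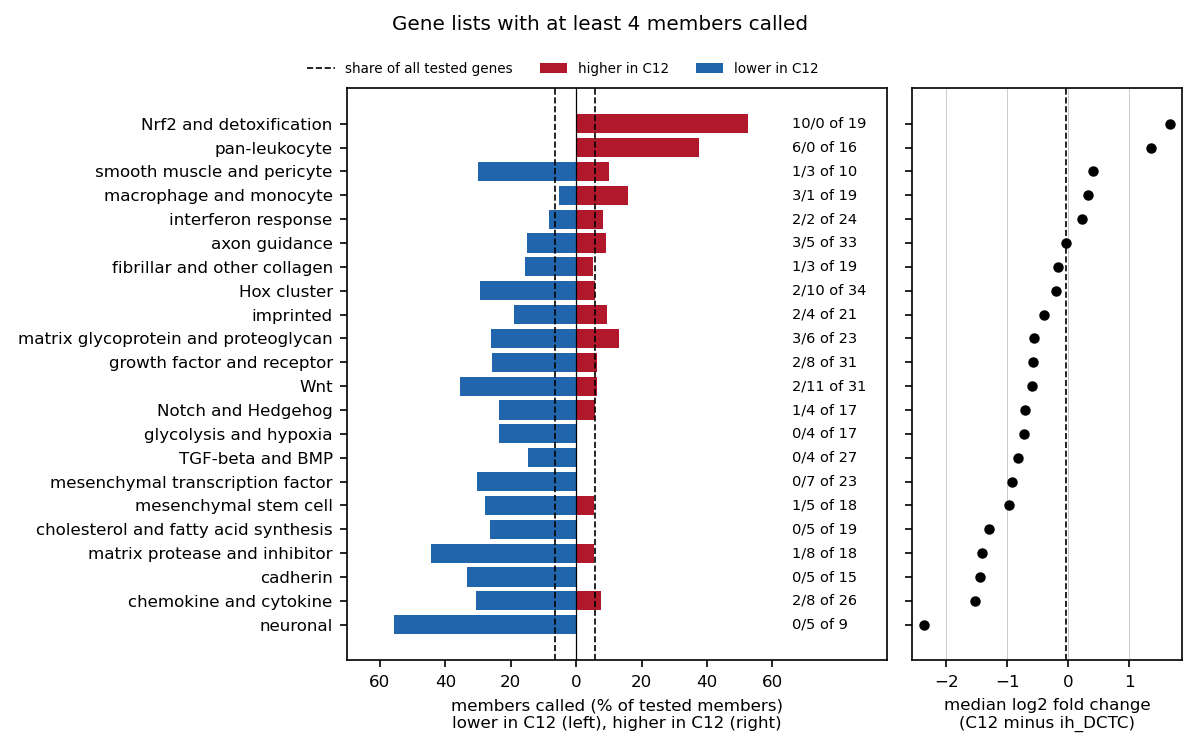
Lists with at least 4 called members: bars give the percentage of tested members called lower (left) or higher (right) in C12, text gives higher/lower of tested, and points give the median log2 fold change. Dashed lines are the same values over all 15779 tested genes; Nrf2 and detoxification and pan-leukocyte reach furthest to the right, neuronal and matrix protease furthest to the left.

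Of 16 pan-leukocyte genes, 6 were higher in C12, namely Was, Vav1, Rac2, Lcp1, Itgb2 and Arhgdib, while Ptprc, Spi1, Tyrobp, Cd52 and Cd48 of the same list did not pass and stayed under 1.2 CPM in both lines. Was, which drives actin branching in blood cells, stood at 10.1, 8.99 and 3.14 CPM in C12 and 0, 0 and 0.0907 CPM in ih_DCTC (223-fold higher in C12, 95% counting interval 39.7 to 8868, edgeR adjusted p = 2.03e-05). Vav1, an exchange factor for small GTPases, stood at 5.61, 8.77 and 4.08 CPM in C12 and 0, 0.0752 and 0 CPM in ih_DCTC (191-fold higher in C12, 95% counting interval 33.9 to 7589, edgeR adjusted p = 1.84e-06). The groups did not overlap for either gene. Rac2, a small GTPase of blood cells, was at 7.47, 8.33 and 1.02 CPM against 0.125, 0.0752 and 0.181 CPM (log2 fold change 5.35 ± 0.76 (SE), edgeR adjusted p = 0.00014), and lost its call without the low-intron libraries (edgeR adjusted p = 0.0533). Lcp1, an actin-bundling protein, was at 21.9, 20.1 and 14.7 CPM against 0.249, 0.752 and 1.18 CPM (log2 fold change 4.62 ± 0.55 (SE), edgeR adjusted p = 2.73e-05). Itgb2, the beta chain of leukocyte integrins, was at 52.2, 52.3 and 35.3 CPM against 6.35, 2.11 and 5.17 CPM (log2 fold change 3.37 ± 0.45 (SE), edgeR adjusted p = 8.35e-05). Arhgdib, an inhibitor that holds small GTPases in the cytosol, was called over all libraries and not without the low-intron ones (edgeR adjusted p = 0.369). Outside the list, among the genes that rose most, Inpp5d, the SHIP1 lipid phosphatase, was at 41.3, 51.6 and 20.5 CPM against 0.498, 0.0752 and 0.363 CPM (log2 fold change 6.98 ± 0.52 (SE), edgeR adjusted p = 2.34e-07). Nckap1l, a subunit of the WAVE actin complex of blood cells, was at 63.5, 59.5 and 47.4 CPM against 0.996, 1.505 and 0.635 CPM (log2 fold change 5.73 ± 0.56 (SE), edgeR adjusted p = 3.89e-06). Arhgap30, a GTPase-activating protein, and Wdfy4, needed for cross-presentation by dendritic cells, were 18.97 CPM or more in every C12 library and 0.226 CPM or less in every ih_DCTC library (edgeR adjusted p = 5.42e-09 and 1.14e-07).

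The summed level of the 16 pan-leukocyte genes was 101 to 191 CPM in C12 and 17.7 to 36.5 CPM in ih_DCTC, against at least 10017 CPM in MDSC. In the other lines it was 109 to 264 CPM in ih_STC_BM, 68.8 to 74.6 CPM in ih_CTC and 14.6 to 19.2 CPM in ih_BCTC. Inpp5d and Arhgap30 averaged 16.6 and 20.9 CPM in ih_STC_BM, so the higher level was not particular to C12. C12 library 3 was the lowest C12 library for all 6 called members. Once intron share entered the fit 6 members were higher, and without the low-intron libraries 4 were. The part of other cells in this difference was not tested. Macrophage markers gave 3 higher and 1 lower of 19, where 5.69% of all tested genes were higher and 6.52% lower. The same shares apply to the dendritic cell and MHC class II counts below. Lyz2, lysozyme, was at 20.99, 20.6 and 10.5 CPM against 4.86, 2.86 and 2.99 CPM (log2 fold change 2.29 ± 0.45 (SE), edgeR adjusted p = 0.0027), and Cd14, the coreceptor for endotoxin, at 16.7, 17.5 and 18.9 CPM against 121, 41.5 and 128 CPM (log2 fold change -2.45 ± 0.57 (SE), edgeR adjusted p = 0.00828). Both calls were lost without the low-intron libraries (edgeR adjusted p = 0.14 and 0.339). Dendritic cell markers gave 1 higher and 2 lower of 14, with Fscn1, an actin bundler that mesenchymal cells also make, the higher one at 566, 699 and 419.8 CPM against 265, 273 and 188 CPM (log2 fold change 1.21 ± 0.32 (SE), edgeR adjusted p = 0.018). Fscn1 lost its call without the low-intron libraries (0.42), without C12 library 1 (0.0523), without C12 library 2 (0.0785) and without ih_DCTC library 3 (0.0822; adjusted p by edgeR in each case). Zbtb46, a dendritic cell transcription factor, was lower in C12 than in ih_DCTC, at 0.659, 0.439 and 0.235 CPM against 8.59, 3.08 and 6.71 CPM (log2 fold change -3.78 ± 0.69 (SE), edgeR adjusted p = 0.00141). Cd74, the MHC class II chaperone, was the only 1 of 8 MHC class II genes called, at 10.3, 12.7 and 15.8 CPM against 1.37, 0.903 and 3.54 CPM (log2 fold change 2.74 ± 0.64 (SE), edgeR adjusted p = 0.00823). Zbtb46 and Cd74 lost their calls without the low-intron libraries (edgeR adjusted p = 0.0798 and 0.112). Fewer blood-type cells in a culture and less RNA per cell cannot be told apart in these bulk libraries.

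Detoxification genes were higher in C12. Their list holds targets of Nrf2, the transcription factor that answers oxidants, and other detoxification enzymes, and 10 of 19 tested members were higher and 0 lower. Aldh3a1, an aldehyde dehydrogenase, stood at 4489, 4590 and 769 CPM in C12 and 128, 21.7 and 54.5 CPM in ih_DCTC (log2 fold change 5.60 ± 0.94 (SE), edgeR adjusted p = 0.000681). Nqo1, a quinone reductase and a standard Nrf2 target, stood at 224, 183 and 57.9 CPM in C12 and 27.1, 22.5 and 17.9 CPM in ih_DCTC (log2 fold change 2.78 ± 0.54 (SE), edgeR adjusted p = 0.00225). Gsta2, a glutathione transferase, stood at 23.9, 16.1 and 8.07 CPM in C12 and 0.249, 0.1505 and 0.363 CPM in ih_DCTC (log2 fold change 5.93 ± 1.04 (SE), edgeR adjusted p = 0.00162), and near copies of it could share its reads. In all 3, C12 libraries 1 and 2 were above library 3 and no library of ih_DCTC reached the lowest of C12. Cyp1a1, a cytochrome P450 best known as a target of the aryl hydrocarbon receptor, was at 30.995, 23.02 and 2.04 CPM against 0.623, 0.226 and 0.272 CPM (log2 fold change 5.67 ± 1.10 (SE), edgeR adjusted p = 0.00345). Gclm, a subunit of the enzyme that starts glutathione synthesis, was at 235, 183 and 143 CPM against 23.5, 75.1 and 53.2 CPM (log2 fold change 1.88 ± 0.32 (SE), edgeR adjusted p = 0.000729). Gsta4, Gstm1, Gstm2, Ephx1 and Srxn1 were the other called members, with log2 fold changes of 2.56, 1.62, 1.73, 1.66 and 1.14. Gclm and these 5 fall outside the rule for named genes and are given to complete the count, as is Hmox1. Hmox1, heme oxygenase, did not pass, at 433, 448 and 195 CPM against 561, 307 and 545 CPM (edgeR adjusted p = 0.728).

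C12 library 3, with 5.23% of reads in introns, was the lowest C12 library for all 10 called members, and libraries 1 and 2 had 2.52% and 1.02%. Once intron share entered the fit 12 members were higher. Without the low-intron libraries 2 were, Aldh3a1 and Gclm (edgeR adjusted p = 0.0284 and 0.0331), and Nqo1, Gsta2 and Cyp1a1 were not (0.272, 0.115 and 0.326). A search for the core letters of the antioxidant response element, TGACNNNGC, on both strands of the 250 bases before the start found it in 10.2% of the 32851 promoters of the RefSeq table (GRCm38.p6), in 13.8% of those of tested genes, in 3 of the 15 list members that the table holds (20%) and in 1 of the 8 called members (12.5%). The called member is Gclm, and its sequence is shown because it carries the match, which is in capitals and reads on the minus strand of the printed line from base 117 (chr3:122245307-122245556, plus strand, 5′ to 3′). A match of letters does not show a binding site, and no other motif was searched.
Gclm: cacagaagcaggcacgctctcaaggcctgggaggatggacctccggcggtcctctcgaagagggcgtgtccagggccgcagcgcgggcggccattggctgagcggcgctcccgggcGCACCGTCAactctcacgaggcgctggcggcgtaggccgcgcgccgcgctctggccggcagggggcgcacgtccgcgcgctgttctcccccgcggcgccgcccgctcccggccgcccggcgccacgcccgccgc

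Several matrix proteases and matrix glycoproteins were lower in C12, while Col1a1 did not pass. Of 18 proteases and inhibitors, 8 were lower and 1 higher in C12 (median log2 fold change -1.41). Mmp13, a collagenase, stood at 1.32, 1.096 and 0.941 CPM in C12 and 31.8, 49.2 and 264 CPM in ih_DCTC (log2 fold change -6.68 ± 0.96 (SE), edgeR adjusted p = 0.000153). Mmp3, stromelysin 1, stood at 0.989, 2.303 and 0.862 CPM in C12 and 41.96, 43.9 and 276 CPM in ih_DCTC (log2 fold change -6.45 ± 0.87 (SE), edgeR adjusted p = 8.65e-05). In both genes ih_DCTC library 3 was over 5 times the other ih_DCTC libraries, and no ih_DCTC library came down to C12. Mmp10, stromelysin 2, was at 0.1099, 0.1096 and 0 CPM against 4.98, 5.04 and 11.8 CPM (113-fold lower in C12, 95% counting interval 31.1 to 942, edgeR adjusted p = 0.00103), and lost its call without the low-intron libraries (edgeR adjusted p = 0.0575). Serpine2, a secreted protease inhibitor, went the other way, at 195, 186 and 143 CPM against 7.098, 11.3 and 52.2 CPM (log2 fold change 2.89 ± 0.64 (SE), edgeR adjusted p = 0.00564; 0.19 without those libraries). Of 23 matrix glycoproteins, 6 were lower and 3 higher, against 6.52% and 5.69% of all tested genes. Dcn, decorin, a proteoglycan that binds collagen fibrils, was at 5.39, 2.74 and 33.000 CPM against 656, 808 and 2210 CPM (log2 fold change -6.47 ± 0.99 (SE), edgeR adjusted p = 0.000313). Tnc, tenascin C, was at 0.769, 0.767 and 0.314 CPM against 11.8, 49.1 and 127 CPM (log2 fold change -6.68 ± 0.93 (SE), edgeR adjusted p = 0.00012). Fbln5, an elastic fibre protein, was at 4.73, 2.96 and 4.08 CPM against 218, 102 and 173 CPM (log2 fold change -5.38 ± 0.64 (SE), edgeR adjusted p = 2.87e-05). In none of these 3 genes did the lines overlap, and all 3 passed without the low-intron libraries.

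Collagen genes as a list leaned little, with 3 lower and 1 higher of 19 and a median of -0.16. Col3a1, which forms type III collagen, was at 241, 199.6 and 232 CPM against 1835, 748 and 1238 CPM (log2 fold change -2.51 ± 0.62 (SE), edgeR adjusted p = 0.0123), and Col11a1 at 0, 0.1096 and 0 CPM against 4.98, 8.88 and 30.8 CPM (477-fold lower in C12, 95% counting interval 85.2 to 18873, edgeR adjusted p = 0.00337). Both lost their call without the low-intron libraries (edgeR adjusted p = 0.429 and 0.143), and Col3a1 also without C12 library 2 (0.0618). Mesenchymal stem cell markers gave 5 lower and 1 higher of 18, against 6.52% and 5.69% of all tested genes. The lower count was 3 without C12 library 1, 2 without C12 library 2 and 3 without ih_DCTC library 3. Pdgfra, a receptor of platelet-derived growth factor, was at 122, 105 and 195 CPM against 529, 428 and 566 CPM (log2 fold change -1.85 ± 0.42 (SE), edgeR adjusted p = 0.00674), and Cxcl12, a chemokine that holds blood stem cells in marrow, at 3.74, 1.53 and 4.94 CPM against 42.2, 25.2 and 59.2 CPM (log2 fold change -3.61 ± 0.97 (SE), edgeR adjusted p = 0.0197). Vcam1, an adhesion molecule for leukocytes, was at 35.3, 27.2 and 21.01 CPM against 81.8, 118 and 194 CPM (log2 fold change -2.24 ± 0.49 (SE), edgeR adjusted p = 0.0051). All 3 were lower in each C12 library than in each ih_DCTC library, and all lost the call without the low-intron libraries (edgeR adjusted p = 0.437, 0.474 and 0.0967). Pdgfra lost it also without C12 library 2 (0.0521), and Cxcl12 without C12 library 1 (0.0732), C12 library 2 (0.0996) or ih_DCTC library 3 (0.054; adjusted p by edgeR in each case).

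Of 26 tested secreted cytokines, 8 were lower in C12 and 2 higher (median log2 fold change -1.53). Every C12 library was below every ih_DCTC library in 9 members and above in 7, against 11.5% and 10.9% of all tested genes. Most of the 7 above did not pass the test. Without C12 library 1 or 2 the lower count was 5. Il6, an inflammatory cytokine, stood at 0.769, 0.1096 and 1.49 CPM in C12 and 13.7, 36.6 and 288 CPM in ih_DCTC (log2 fold change -7.07 ± 1.08 (SE), edgeR adjusted p = 0.000443). Lif, its relative that acts through the same gp130 receptor chain, stood at 18.8, 9.32 and 31.04 CPM in C12 and 279, 352 and 987 CPM in ih_DCTC (log2 fold change -4.77 ± 0.56 (SE), edgeR adjusted p = 2.73e-05). Csf3, the granulocyte colony-stimulating factor, stood at 0.3297, 0.987 and 0 CPM in C12 and 13.2, 26.1 and 74.6 CPM in ih_DCTC (log2 fold change -6.49 ± 1.04 (SE), edgeR adjusted p = 0.000527). The lowest ih_DCTC library was above the highest C12 library in all 3, and ih_DCTC library 3 was the highest ih_DCTC library in 7 of the list's 10 called members. Ccl11, the eosinophil chemokine eotaxin, was higher in C12, at 10.6, 6.91 and 33.7 CPM against 0.125, 0.752 and 0.363 CPM (log2 fold change 5.25 ± 0.99 (SE), edgeR adjusted p = 0.00237). Of 11 complement genes, 3 were lower and 0 higher. Serping1, the inhibitor of the first complement component, was at 0.1099, 0.329 and 0.157 CPM against 6.101, 4.44 and 24.9 CPM (log2 fold change -5.84 ± 0.80 (SE), edgeR adjusted p = 0.000164), and C4b at 0.2198, 0.219 and 1.097 CPM against 70.5, 4.51 and 47.9 CPM (log2 fold change -6.20 ± 1.12 (SE), edgeR adjusted p = 0.00128; 0.222 without the low-intron libraries). Interferon response genes showed no lean, with 2 higher and 2 lower of 24. The cytokine, complement and interferon counts stand against 5.69% higher and 6.52% lower over all tested genes.

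**Figure D3:**
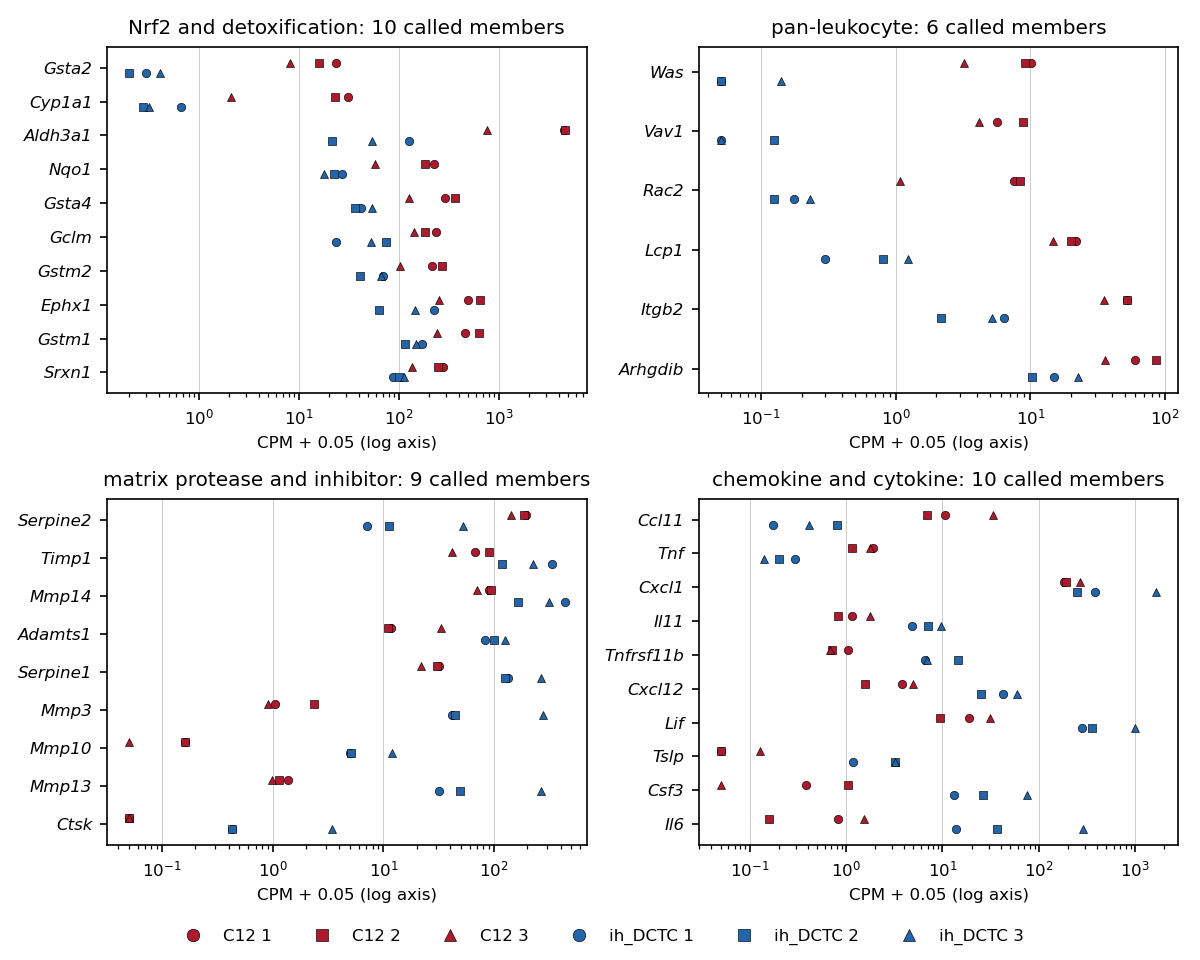
Level of every called member of 4 lists, as CPM + 0.05 on a log axis, 1 point per library, ordered by log2 fold change. The triangle of C12 library 3 is the lowest C12 point for all 10 detoxification members and all 6 pan-leukocyte members, and ih_DCTC library 3 is the highest ih_DCTC point for 7 of 9 protease and inhibitor members.

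Wnt pathway genes were lower in C12 in 11 of 31 tested members and higher in 2 (median log2 fold change -0.59). The lower count was 7 without C12 library 1, 5 without C12 library 2 and 7 without ih_DCTC library 1. Wnt proteins are secreted signals that bind Frizzled receptors, and secreted modulators of the pathway led the list. Besides Dkk2, Sfrp1, a secreted Wnt-binding protein, stood at 15.5, 12.4 and 4.23 CPM in C12 and 96.6, 177 and 200.5 CPM in ih_DCTC (log2 fold change -3.89 ± 0.53 (SE), edgeR adjusted p = 9.43e-05). Sfrp2, of the same family, had 0 counts in C12 against 0.747, 1.505 and 13.97 CPM in ih_DCTC (at least 57.5-fold lower in C12, edgeR adjusted p = 0.00751). Nkd2, an intracellular antagonist of the pathway, was at 1.099, 1.32 and 2.19 CPM against 13.4, 14.5 and 21.5 CPM (log2 fold change -3.40 ± 0.51 (SE), edgeR adjusted p = 0.000416). Without the low-intron libraries 2 of the 11 lower members passed, Dkk2 and Sfrp1 (edgeR adjusted p = 0.0345 and 0.0015), while Sfrp2 and Nkd2 did not (0.126 and 0.0595). In the TGF-beta and BMP list 4 of 27 were lower and 0 higher, and 2 were lower without C12 library 1, C12 library 2 or ih_DCTC library 3. These included Fst, follistatin, which traps activin, at 6.59, 5.04 and 7.995 CPM against 35.4, 85.99 and 61.04 CPM (log2 fold change -3.21 ± 0.52 (SE), edgeR adjusted p = 0.000511). Growth factors and receptors gave 8 lower and 2 higher of 31, with 4 lower without C12 library 1 or 2. Over all tested genes 6.52% were lower and 5.69% higher, which applies to the 3 lists of this paragraph. Areg, an EGF receptor ligand, was at 1.32, 0.987 and 1.097 CPM against 4.98, 18.7 and 19.4 CPM (log2 fold change -3.66 ± 0.68 (SE), edgeR adjusted p = 0.00157), and Hgf, the ligand of Met, at 1.21, 0.1096 and 1.65 CPM against 3.11, 7.67 and 25.03 CPM (log2 fold change -3.55 ± 0.75 (SE), edgeR adjusted p = 0.00427). Fst, Areg and Hgf missed the threshold without the low-intron libraries (edgeR adjusted p = 0.0658, 0.058 and 0.0594), and Hgf also with the 6 libraries alone (0.0862).

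Hox genes, which mark the body position of connective tissue cells, differed in number mainly in the HOXC cluster. Of 34 tested, 10 were lower and 2 higher in C12, and 8 of the 10 were among the 9 tested genes of the HOXC cluster on chromosome 15. Hoxc11 stood at 0.1099, 0.219 and 0.157 CPM in C12 and 32.9, 10.01 and 16.3 CPM in ih_DCTC (log2 fold change -6.83 ± 0.73 (SE), edgeR adjusted p = 2.28e-05). Hoxc10 stood at 0, 0.1096 and 0.392 CPM in C12 and 33.99, 10.2 and 21.2 CPM in ih_DCTC (log2 fold change -6.78 ± 0.71 (SE), edgeR adjusted p = 3.64e-05). Hoxc9 and Hoxc13 showed the same pattern, at 0.220 CPM or less in C12 and 3.01 to 13.7 CPM in ih_DCTC (edgeR adjusted p = 1.32e-05 and 0.000236). All ih_DCTC libraries were above all C12 libraries in these 4 genes. The summed level of HOXC genes was 8.22 to 13.9 CPM in C12 and 68.5 to 136 CPM in ih_DCTC, whereas HOXA genes summed to 109 to 114 CPM and 97.6 to 134 CPM. HOXB genes went the other way without overlap, with sums of 115 to 157 CPM in C12 and 57.3 to 94.6 CPM in ih_DCTC and a median log2 fold change of 0.93, and 1 of 9 was called. HOXD genes summed to 26.2 to 39.6 CPM and 22.9 to 29.6 CPM. HOXA had 1 lower of 11, and HOXD 1 higher and 1 lower of 5. Without the low-intron libraries Hoxc9, Hoxc10 and Hoxc11 passed, and Hoxc13 did not (edgeR adjusted p = 0.0505). The clusters were set apart after their values were seen.

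Other transcription factors of mesenchyme were lower in C12 too, with 7 of 23 lower and 0 higher, against 6.52% and 5.69% of all tested genes. Without C12 library 1 or 2 the count was 4, and it was 10 once intron share entered the fit. Prrx1, a homeobox factor of limb and skull mesenchyme, stood at 115, 68.97 and 198 CPM in C12 and 473, 818 and 791 CPM in ih_DCTC (log2 fold change -2.45 ± 0.36 (SE), edgeR adjusted p = 0.000192). Pitx1, which gives hindlimb identity, stood at 0.3297, 1.75 and 1.49 CPM in C12 and 25.7, 12.4 and 20.9 CPM in ih_DCTC (log2 fold change -4.01 ± 0.57 (SE), edgeR adjusted p = 0.000151). Neither gene overlapped between the lines, and both passed without the low-intron libraries (edgeR adjusted p = 0.0215 and 0.0262). Tbx20, a T-box factor of the heart, was at 0.5496, 0.329 and 0.235 CPM against 0.498, 11.8 and 6.803 CPM (log2 fold change -4.10 ± 0.93 (SE), edgeR adjusted p = 0.00863), with ih_DCTC library 1 inside the C12 range. Outside this list, Hand1, a factor of heart, trophoblast and lateral mesoderm, was the reverse case. It is one of the chromosome 11 genes near 0 in ih_DCTC that are described below. Hand1 stood at 12.9, 20.1 and 16.5 CPM in C12 with 0 counts in ih_DCTC (at least 178-fold higher in C12, edgeR adjusted p = 0.000776). All C12 libraries carried it, and it averaged under 0.1 CPM in each of the other 5 groups.

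Cadherin genes leaned lower in C12, while integrin genes, also of cell adhesion, leaned little in their calls. Each list count in this paragraph stands against 5.69% higher and 6.52% lower over all tested genes. Of 18 integrin genes, 2 were higher and 1 lower. Itgb4, the epithelial beta chain, was at 21.9, 31.03 and 25.4 CPM against 4.23, 3.31 and 5.17 CPM (log2 fold change 2.62 ± 0.54 (SE), edgeR adjusted p = 0.00356), and Itga7, a laminin-binding chain, at 4.95, 6.69 and 3.37 CPM against 44.5, 21.4 and 58.05 CPM (log2 fold change -3.05 ± 0.58 (SE), edgeR adjusted p = 0.00204). Both lost their calls without the low-intron libraries (edgeR adjusted p = 0.117 and 0.0966). Cadherin family genes gave 5 lower and 0 higher of 15, among them Fat4, an atypical cadherin, at 0, 0.1096 and 0 CPM against 2.49, 28.8 and 27.5 CPM (676-fold lower in C12, 95% counting interval 121 to 26740, edgeR adjusted p = 0.000155). Pcdh7, a protocadherin, was at 12.7, 7.35 and 12.8 CPM against 39.97, 157 and 177 CPM (log2 fold change -3.51 ± 0.55 (SE), edgeR adjusted p = 0.00037). Axon guidance genes gave 5 lower and 3 higher of 33, with 3 lower without C12 library 1 and 8 lower once intron share entered the fit. Slit3, a secreted ligand of Robo receptors, stood at 10.7, 9.43 and 7.603 CPM in C12 and 129, 159 and 202 CPM in ih_DCTC (log2 fold change -4.15 ± 0.34 (SE), edgeR adjusted p = 5.98e-07). Slit2, its paralogue, stood at 15.4, 8.11 and 21.9 CPM in C12 and 71.5, 229 and 213 CPM in ih_DCTC (log2 fold change -3.49 ± 0.49 (SE), edgeR adjusted p = 0.00014). Both passed without the low-intron libraries, with no overlap between the lines (edgeR adjusted p = 0.000704 and 0.0101). Sema3a, a repulsive guidance cue, was at 0.659, 0.219 and 0.627 CPM against 5.98, 47.1 and 36.2 CPM (log2 fold change -5.84 ± 1.12 (SE), edgeR adjusted p = 0.00274; 0.112 without those libraries). Neuronal markers gave 5 lower and 0 higher of 9. The count was 2 without C12 library 1 or 2 and 3 without ih_DCTC library 2 or 3. The list had a summed level of 34.2 to 60.6 CPM in C12 and 133 to 158 CPM in ih_DCTC. Stmn2, a microtubule regulator of growing axons, accounted for most of that gap, at 0, 0.548 and 0.0784 CPM against 126, 61.5 and 63.8 CPM (log2 fold change -8.65 ± 0.96 (SE), edgeR adjusted p = 1.45e-05). Gap43 and Nefl, of growth cones and neurofilaments, were also lower over all libraries, with log2 fold changes of -2.65 and -3.10. Nefl passed without the low-intron libraries and missed the threshold with the 6 libraries alone (edgeR adjusted p = 0.0147 and 0.0657). Gap43 lost its call without the low-intron libraries (0.26), without C12 library 1 (0.0756) or 2 (0.107), and without ih_DCTC library 2 (0.0765) or 3 (0.0654; adjusted p by edgeR).

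Lipid and sugar metabolism genes were lower in part. Of 19 cholesterol and fatty acid synthesis genes, 5 were lower and 0 higher, and 13 had every C12 library below every ih_DCTC library (11.5% of all tested genes did). The lower count was 3 without C12 library 1, C12 library 2 or ih_DCTC library 2, and 10 by DESeq2. Insig1, a sterol sensor partner, stood at 14.6, 7.89 and 14.4 CPM in C12 and 67.5, 76.5 and 72.4 CPM in ih_DCTC (log2 fold change -2.55 ± 0.50 (SE), edgeR adjusted p = 0.00261). Sqle, squalene epoxidase, stood at 62.2, 52.96 and 40.4 CPM in C12 and 161, 184 and 108 CPM in ih_DCTC (log2 fold change -1.54 ± 0.39 (SE), edgeR adjusted p = 0.015). The groups did not overlap in either gene. Without the low-intron libraries 1 list member was lower, and Insig1 and Sqle lost their calls (edgeR adjusted p = 0.215 and 0.227). Sqle also lost its call without C12 library 2 (0.06) or ih_DCTC library 2 (0.0537; adjusted p by edgeR). Glycolysis and hypoxia genes gave 4 lower and 0 higher of 17, against 6.52% and 5.69% of all tested genes. Once intron share entered the fit 13 were lower, against 9.32% of all tested genes. Without C12 library 1 the lower count was 1, and without C12 library 2 or ih_DCTC library 1 it was 2. Slc2a1, the GLUT1 glucose transporter, was at 198, 249 and 184 CPM against 3289, 527 and 691 CPM (log2 fold change -2.84 ± 0.71 (SE), edgeR adjusted p = 0.0129), with ih_DCTC library 1 far above the others. Bnip3, a hypoxia-induced mitophagy receptor, was at 67.7, 50.1 and 105 CPM against 581, 381 and 479.5 CPM (log2 fold change -2.69 ± 0.52 (SE), edgeR adjusted p = 0.00214). Neither passed without the low-intron libraries (edgeR adjusted p = 0.49 and 0.304). Slc2a1 lost its call also without ih_DCTC library 1 (0.114), without C12 library 1 (0.0599) and with the 6 libraries alone (0.07; adjusted p by edgeR).

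Genes of cell division and respiration did not pass the test. By edgeR none of 23 cell cycle genes and none of 14 oxidative phosphorylation genes was called. The median log2 fold change of the cell cycle genes was 0.53, and -0.53 without the low-intron libraries, and that of the oxidative phosphorylation genes 0.21 and -0.22. The spread within each line was wide: Mki67, a proliferation marker, was at 101, 36.1 and 96.02 CPM in C12 and 27.1, 316 and 52.1 CPM in ih_DCTC (log2 fold change -0.76 ± 0.76 (SE), edgeR adjusted p = 0.588). Myc, at 160.1, 146 and 323 against 217, 369 and 419 CPM, and Trp53, at 231, 352 and 154 against 201, 201 and 96.7 CPM, overlapped between the lines and missed the threshold (edgeR adjusted p = 0.394 and 0.487). Of the cell cycle inhibitors, Cdkn2c was lower in C12, at 84.96, 83.7 and 48.9 CPM against 143, 154 and 169.5 CPM (log2 fold change -1.10 ± 0.25 (SE), edgeR adjusted p = 0.00745), and Cdkn1b at 30.1, 27.3 and 48.4 CPM against 90.8, 60.1 and 83.6 CPM (log2 fold change -1.15 ± 0.34 (SE), edgeR adjusted p = 0.0355). Cdkn1b lost its call with any 1 of C12 library 1, C12 library 2, ih_DCTC library 1 or ih_DCTC library 3 left out (edgeR adjusted p = 0.14, 0.187, 0.112 and 0.0903), and also without the low-intron libraries (0.818). Cdkn2c passed there (0.0285), and with the 6 libraries alone neither Cdkn2c nor Cdkn1b did (0.126 and 0.14; adjusted p by edgeR). Imprinted genes, expressed from the copy of 1 parent, gave 2 higher and 4 lower of 21, against 5.69% and 6.52% of all tested genes. H19, a noncoding RNA of the maternal copy, was at 7.69, 9.87 and 5.72 CPM against 0, 0.0752 and 0 CPM (243-fold higher in C12, 95% counting interval 43.2 to 9651, edgeR adjusted p = 0.00187). Dlk1, a Notch-like protein made from the paternal copy, was at 1.87, 5.15 and 3.53 CPM against 241, 119.5 and 238 CPM (log2 fold change -5.82 ± 1.12 (SE), edgeR adjusted p = 0.00211). The lines did not overlap in either gene, but neither passed without the low-intron libraries (edgeR adjusted p = 0.0969 and 0.198).

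The genes that differed were unevenly spread over the chromosomes. On the X chromosome 112 of 520 tested genes were higher in C12 (21.5%, against 5.69% of all tested genes) and 12 were lower (2.31%, against 6.52%). On chromosome 3, 124 of 764 were lower (16.2%) and 14 higher, and on chromosome 4, 129 of 944 were lower (13.7%) and 37 higher. Chromosome 11 leaned the other way, with 140 of 1273 higher (11%) and 37 lower. Median log2 fold changes were -0.41 on chromosome 3, -0.47 on chromosome 14, -0.45 on chromosome 18, 0.25 on chromosome 11 and 0.14 on X. Without the low-intron libraries they were -0.20 on chromosome 3, -0.40 on chromosome 14, -0.18 on chromosome 18, 0.27 on chromosome 11 and 0.32 on X, and over genes of at least 20 CPM the X median was 0.053. On chromosome 3 the median log2 CPM difference of each C12 library from the ih_DCTC mean was -0.38, -0.74 and -0.11. The difference of each ih_DCTC library from the C12 mean was 0.08, 0.61 and 0.51. On X the same differences were 0.28, 0.012 and 0.53 for the C12 libraries and -0.61, -0.15 and 0 for the ih_DCTC libraries. These triplets have different zero points, so they do not rank single libraries across the lines. Without the low-intron libraries 66 X genes were higher (1.81% of all genes were), and 46 genes each on chromosomes 3 and 4 were lower (1.37%). Counts per chromosome are a description of position, since neighbouring genes are not independent.

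**Figure D4:**
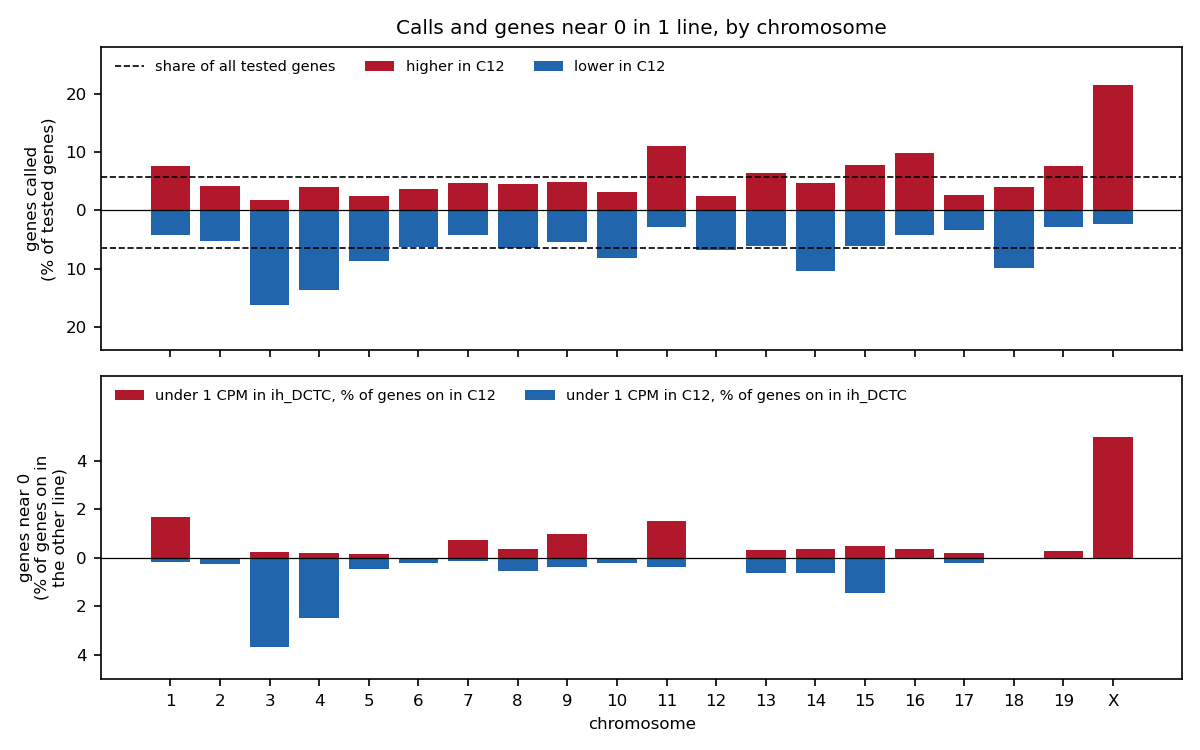
Top, percentage of tested genes per chromosome called higher (up) or lower (down) in C12, with dashed lines at the share of all tested genes. Bottom, genes under 1 CPM in every library of one line as a percentage of the genes at 5 CPM or more in every library of the other; X reaches 4.96% for ih_DCTC and chromosome 3 reaches 3.66% for C12.

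Some genes were near 0 in one line and on in the other, and these too were unevenly spread. Chosen after the values were seen, 59 genes were under 1 CPM in every C12 library and at 5 CPM or more in every ih_DCTC library, and 57 the reverse. All 59 and all 57 were among the called genes, which follows closely from how they were chosen. Of the genes on in ih_DCTC, 17 of 464 on chromosome 3 were near 0 in C12 (3.66%) and 14 of 568 on chromosome 4 (2.46%), against 59 of 9426 in all (0.626%). Of the genes on in C12, 13 of 262 on X were near 0 in ih_DCTC (4.96%) and 13 of 852 on chromosome 11 (1.53%), against 57 of 9289 in all (0.614%). The 13 X genes included Maob, Usp11, L1cam, Renbp, Gspt2, Itm2a, Armcx4, Armcx6, Armcx2, Tceal3, Esx1 and Prdx4. Prdx4, an antioxidant enzyme of the endoplasmic reticulum, stood at 50.3, 68.3 and 30.2 CPM in C12 and 0.249, 0.0752 and 0.363 CPM in ih_DCTC (log2 fold change 7.74 ± 0.59 (SE), edgeR adjusted p = 2.77e-07). Renbp, a sugar epimerase that binds renin, stood at 31.5, 43.97 and 28.1 CPM in C12 and 0.249, 0 and 0 CPM in ih_DCTC (546-fold higher in C12, 95% counting interval 151 to 4516, edgeR adjusted p = 8.21e-06). Both stayed under 0.4 CPM in each ih_DCTC library, where the rule of choice required under 1 CPM. On chromosome 4, Galnt12, a mucin glycosyltransferase, had 0 counts in C12 against 8.47, 17.5 and 8.44 CPM in ih_DCTC (at least 126-fold lower in C12, edgeR adjusted p = 3.37e-05), and Coro2a, a coronin, 0 counts and 13.3, 11.9 and 7.17 CPM (at least 109.8-fold lower in C12, edgeR adjusted p = 1.8e-06).

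The other groups differed in how many of these genes were near 0. The 59 genes near 0 in C12 were near 0 in ih_BCTC in 0 cases and at 5 CPM or more in all its libraries in 47. In ih_CTC 17 of the 59 were near 0 and 23 were on. Among the 14 on chromosome 4, 10 were near 0 in ih_CTC, whereas of the 17 on chromosome 3, 1 was. The 57 genes near 0 in ih_DCTC were near 0 in ih_BCTC in 53 cases and on in 0, and in ih_CTC 35 were near 0 and 10 on. All 13 X genes were near 0 in ih_BCTC, and 7 were on in ih_CTC, 6 in ih_STC_BM, 6 in MDSC and 8 in MSC. Limits of 0.5 and 10 CPM in place of 1 and 5 left 14 genes near 0 in C12 and 11 near 0 in ih_DCTC. Without C12 library 3 the genes near 0 in ih_DCTC numbered 87.

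**Figure D5:**
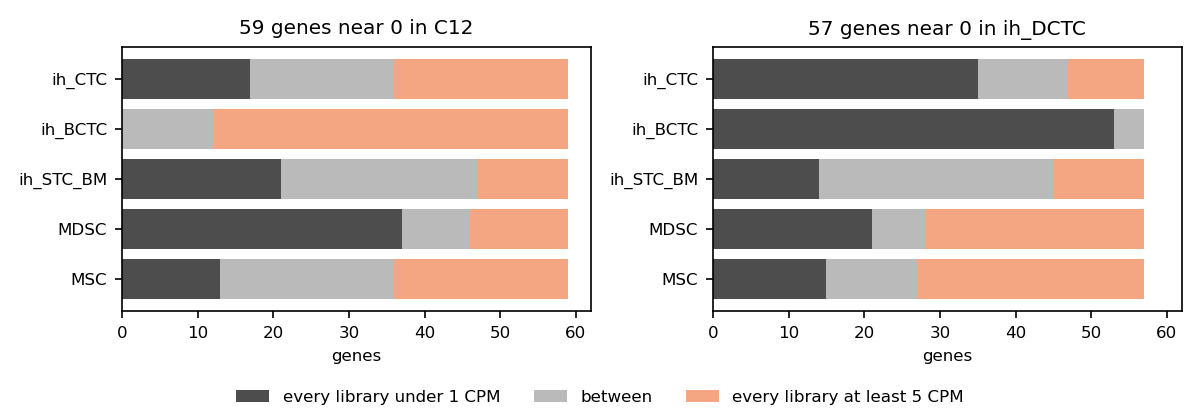
State of the 59 genes near 0 in C12 and the 57 near 0 in ih_DCTC in the 5 other groups, as numbers of genes with every library under 1 CPM, every library at 5 CPM or more, or between. ih_BCTC has 0 of the first set and 53 of the second near 0.

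Promoters of 5 of these genes are shown, since the genes are near 0 in 1 line and at 11.6 CPM or more in each library of the other. Each line is the 250 bases before the gene's start in the RefSeq table (GRCm38.p6), 5′ to 3′ on the gene's strand, with CG steps, the sites of DNA methylation in mammals, in capitals. Methylation was not measured here. Armcx2 (chrX:134809222-134809471, minus strand), Prdx4 (chrX:155338461-155338710, minus strand) and Renbp (chrX:73930851-73931100, minus strand) are near 0 in ih_DCTC, and Dkk2 (chr3:132085042-132085291, plus strand) and Igsf3 (chr3:101376875-101377124, plus strand) have 0 counts in C12. The windows hold 4, 13, 5, 7 and 27 CG steps in that order, so the near-0 genes shown have both CG-poor and CG-rich windows. The table holds 38 of the 59 and 32 of the 57 genes, fewer than 80% of either set, so a comparison of CG content over the sets was void.
Armcx2: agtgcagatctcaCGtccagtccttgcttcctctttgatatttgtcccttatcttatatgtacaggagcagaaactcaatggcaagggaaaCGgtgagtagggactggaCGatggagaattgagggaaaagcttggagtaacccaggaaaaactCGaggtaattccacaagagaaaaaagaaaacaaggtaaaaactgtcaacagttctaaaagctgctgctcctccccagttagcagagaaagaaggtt
Prdx4: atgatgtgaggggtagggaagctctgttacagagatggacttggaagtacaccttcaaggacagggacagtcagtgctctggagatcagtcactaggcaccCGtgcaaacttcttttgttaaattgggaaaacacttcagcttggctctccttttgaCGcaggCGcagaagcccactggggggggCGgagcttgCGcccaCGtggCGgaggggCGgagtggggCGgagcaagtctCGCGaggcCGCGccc
Renbp: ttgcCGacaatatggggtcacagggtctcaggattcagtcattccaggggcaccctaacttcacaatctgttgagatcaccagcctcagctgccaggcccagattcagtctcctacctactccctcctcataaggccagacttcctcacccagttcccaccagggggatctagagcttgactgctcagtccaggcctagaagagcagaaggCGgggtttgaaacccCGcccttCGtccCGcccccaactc
Dkk2: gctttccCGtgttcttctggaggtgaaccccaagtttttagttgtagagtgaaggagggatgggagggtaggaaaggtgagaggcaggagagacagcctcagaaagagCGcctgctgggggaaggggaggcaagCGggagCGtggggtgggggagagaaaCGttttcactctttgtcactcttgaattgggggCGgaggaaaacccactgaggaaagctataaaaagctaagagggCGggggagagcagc
Igsf3: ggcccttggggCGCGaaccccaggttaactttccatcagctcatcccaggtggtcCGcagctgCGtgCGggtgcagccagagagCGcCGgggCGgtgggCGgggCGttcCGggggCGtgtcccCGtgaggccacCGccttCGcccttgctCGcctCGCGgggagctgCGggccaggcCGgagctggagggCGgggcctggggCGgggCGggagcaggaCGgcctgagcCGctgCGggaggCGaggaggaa

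The uneven spread could also be seen at a finer scale. Among 306 windows of 50 neighbouring tested genes, median log2 fold changes ran from -0.85 to 0.73, with a median of -0.06. The window with most genes higher in C12, 17 of 50 with 0 lower, spans chrX:111569931-137082503 and holds Armcx2, Tceal3, Gprasp2 and Sytl4. Another X window, chrX:152001845-164402650, also had 17 higher and holds Prdx4. The window with most genes lower, 14 of 50 with 0 higher, spans chr4:101496648-108862127 and holds Podn, Echdc2 and Gpx7. Podn, a small leucine-rich matrix protein, had 0 counts in C12 against 4.61, 2.71 and 4.44 CPM in ih_DCTC (at least 38.9-fold lower in C12, edgeR adjusted p = 0.00146). Echdc2 was at 0, 0.219 and 0 CPM against 21.2, 14.3 and 14.97 CPM (251-fold lower in C12, 95% counting interval 69.2 to 2081, edgeR adjusted p = 1.17e-05), and Gpx7, a peroxidase of the endoplasmic reticulum, at 0, 0 and 0.0784 CPM against 5.11, 3.99 and 3.08 CPM (123-fold lower in C12, 95% counting interval 21.6 to 4879, edgeR adjusted p = 5.95e-05). Podn, Echdc2 and Gpx7 were at 0.219 CPM or less in each C12 library, and Podn lost its call without the low-intron libraries (edgeR adjusted p = 0.0935). The highest median lay at chr15:76576358-78894585, which holds Rac2, Csf2rb and Ncf4. Csf2rb, the shared beta chain of the receptors for IL-3, IL-5 and GM-CSF, was at 21.7, 17.9 and 1.88 CPM against 0, 0.0752 and 0.0907 CPM (201-fold higher in C12, 95% counting interval 55.1 to 1662, edgeR adjusted p = 0.00018), and Csf2rb2 lies beside it as a near copy that can share reads. Csf2rb missed the threshold without the low-intron libraries (edgeR adjusted p = 0.0594). The lowest lay at chr14:99046427-122159604, where 10 of 50 were lower and 1 higher, among them Ednrb, an endothelin receptor, at 0.1099, 0 and 0 CPM against 6.35, 8.43 and 6.17 CPM (221-fold lower in C12, 95% counting interval 39.3 to 8774, edgeR adjusted p = 1.08e-05).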

How the data were processed

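RNA of cultured cells was extracted with TRIzol and prepared with a TruSeq kit, per the labels' protocols. STAR, RSEM 1.2.26 and DESeq2 are named in the submitters' processing notes. No source used here gives the genome build. The authors deposited expected counts for 43432 genes, 8.37% of the values not whole. These were rounded before testing. A deposited alignment table gave the percent of reads in introns and the percent mapped (73.26 to 76.35 in the 6 libraries).

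Genes with a count of at least 10 in enough libraries (filterByExpr, total 15) were tested with edgeR 4.0.16 (R 4.3.3): TMM scaling, a robust quasi-likelihood fit over all 20 libraries in 7 groups (13 residual degrees of freedom), Benjamini-Hochberg adjustment over 15779 genes. The SE is the fold change divided by the root of F. DESeq2 1.42.0 and limma-voom 3.58.1 were alternatives, beside other scalings, filters, library sets and an intron covariate. Of these steps, only the filter, TMM scaling and edgeR test were tried on simulated counts with known changes. A gene with 0 counts in a line has its fold given against a floor of 3 counts over that line's libraries; with 1 to 3 counts it has the ratio and its 95% interval. Both cover counting error only.

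Members, the 45 lists (783 genes, 700 tested) and a panel of 19 genes were chosen with earlier results of these data known. Named genes were the 12 largest rises and 12 largest falls among 710 called, non-overlapping genes of at least 20 CPM, up to 4 called genes per list at 5 CPM or more (or its 2 most abundant members), the panel, and up to 4 genes of each region described. Figures were drawn with matplotlib 3.10.9. Some named genes are not reported here.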

Additional observations from a re-analysis of the deposited data

How the results depend on the processing

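The 1927 calls became 1267 with the 15 libraries of the lines only (564 higher in C12), 749 with the 6 libraries alone (356 higher, 393 lower), 520 without the low-intron libraries (296 higher, 224 lower) and 876 by glmTreat against a log2 fold change of 1 (406 higher, 470 lower). Leaving out 1 library gave 1173 to 2814 calls, with 585 to 1165 higher and 588 to 1649 lower, and the lowest total came without C12 library 1. The split of higher to lower was 933 to 977 with RLE scaling, 960 to 958 with upper quartile scaling, 1221 to 1268 by DESeq2 and 1086 to 1149 by limma-voom, and 365 of the 1927 genes were called in every alternative except glmTreat. The mean profile distance was 2.43 over the 2000 most variable genes and 1.76 at a prior count of 0.5, against 1.44. The chromosome 4 median was -0.060 with upper quartile scaling, against -0.11. With limits of 0.5 and 10 CPM 14 genes were near 0 in C12 and 11 in ih_DCTC, and leaving out 1 library gave 61 to 83 and 58 to 87. Thy1, which did not pass (log2 fold change -0.04), ran from -0.55 to 2.26 with 1 library left out and reversed to 2.26 without ih_DCTC library 3 (edgeR adjusted p = 0.00696). Among 138 named genes that were called, 0 reversed, 70 lost the call without the low-intron libraries, 34 by glmTreat, 27 with the 6 libraries alone, 27 without C12 library 1, 26 without C12 library 2 and 18 without ih_DCTC library 3. The 15-library fit and every setting for near-0 genes were added after seeing the data. The cause of these changes was not tested. No paired analysis was possible because the labels give no replicate numbers.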
